A study of Homo sapiens with 8 samples.

Results

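The genes described here are 9 human genes whose products are, or make, neuroblastoma (NB) cell surface molecules targeted by antibody or cell therapy: B4GALNT1, ST8SIA1 and ST3GAL5, which encode enzymes on the route to the ganglioside GD2, and the surface proteins CD276, GPC2, DLK1, CD24, CD47 and CD274. They were listed by name, but with earlier results of these data known, so the choice of genes is not independent of these libraries. The table of counts holds 60676 Ensembl gene rows, of which 32570 had at least 1 count. A row could be paired with 8 of the 9 genes. The gene tables used here pair no Ensembl identifier with CD24, so no value is given for CD24, which RefSeq places on chromosome 6 at 106969831 to 106976855 (GRCh38.p14). Of the 8 paired genes, 7 were among the 16680 genes with enough counts to be tested, and CD274 was not.

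The counts come from bulk RNA-seq of IGR-N91, an established line of human NB cells kept as aggregates in hanging drops. There were 4 groups of 2 libraries each. One group was kept in control medium and the others in medium conditioned by sympathetic ganglia of chick embryos (E8-cSGcm), by dorsal root ganglia of chick embryos (E8-cDRGcm) or by sympathetic ganglia of mouse embryos (E15.5-mSGcm), where E8 and E15.5 are the embryonic day of the donor tissue. All groups thus share 1 cell line and the drop culture. The mouse medium differs from the chick medium of sympathetic ganglia in both species and embryonic day, and from E8-cDRGcm in the ganglion as well. By Carnegie stages, the paper sets the mouse day level with a chick stage near E8. The exposure is 20 h in the protocol of the libraries and 24 h in the design text of the series. No label says that the 2 libraries of a group came from separate cultures or separate batches of medium, so the p-values measure only the spread between these libraries, which may be technical.

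GD2 is a glycolipid of the outer cell membrane, abundant on NB cells and the target of antibodies in clinical use against NB. It is built from lactosylceramide in 3 steps: ST3GAL5 adds a sialic acid and makes GM3, ST8SIA1 adds a further sialic acid and makes GD3, and B4GALNT1 adds an N-acetylgalactosamine and turns GD3 into GD2 or GM3 into GM2. CD276 (B7-H3) and CD274 (PD-L1) belong to the B7 family of ligands, which act on T cells. GPC2 is a glypican, a heparan sulfate proteoglycan held in the membrane by a lipid anchor. DLK1 is a membrane protein related to the Notch ligands, encoded in an imprinted region. CD47 and CD24 are signals against phagocytosis, read by the macrophage receptors SIRPA and SIGLEC10.

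The starts of 3 of these genes are shown because their counts carry the main patterns below: ST3GAL5 and GPC2 were both higher in the 2 media of chick ganglia, and CD47 was lower there. Each sequence is the 250 bases before an annotated start, read 5′ to 3′ on the strand of the gene from RefSeq (GRCh38.p14). Capitals mark the letters of a GC box (GGGCGG, or CCGCCC on the other strand) or of a CCAAT box (CCAAT or ATTGG). ST3GAL5 has 5 starts in that table and the outermost is printed, whereas GPC2 and CD47 have 1 each.
ST3GAL5, chr2:85889035-85889284, minus strand: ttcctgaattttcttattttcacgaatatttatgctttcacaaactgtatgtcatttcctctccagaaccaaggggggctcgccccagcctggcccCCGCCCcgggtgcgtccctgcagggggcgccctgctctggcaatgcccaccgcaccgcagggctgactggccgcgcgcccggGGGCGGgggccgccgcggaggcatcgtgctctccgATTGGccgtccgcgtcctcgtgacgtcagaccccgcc
GPC2, chr7:100177382-100177631, minus strand: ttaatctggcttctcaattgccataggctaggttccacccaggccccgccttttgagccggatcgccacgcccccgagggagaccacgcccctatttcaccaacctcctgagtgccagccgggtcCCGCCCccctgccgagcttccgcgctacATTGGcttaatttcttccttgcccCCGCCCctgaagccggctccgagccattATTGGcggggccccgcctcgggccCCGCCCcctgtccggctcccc
CD47, chr3:108091032-108091281, minus strand: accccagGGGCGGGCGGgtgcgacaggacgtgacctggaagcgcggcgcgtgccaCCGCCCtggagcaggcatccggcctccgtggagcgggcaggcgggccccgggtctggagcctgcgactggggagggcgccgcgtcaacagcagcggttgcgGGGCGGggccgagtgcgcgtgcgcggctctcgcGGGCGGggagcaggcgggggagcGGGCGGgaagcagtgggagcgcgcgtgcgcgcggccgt
Both ST3GAL5 and GPC2 hold GC boxes and ATTGG, and CD47 holds GC boxes alone. These are common letters: of 34943 human windows of this length, 42.5% hold a GC box and 32.0% a CCAAT box. Neither the E-box CACGTG, present in 6.32% of windows, nor the AP-1 motif TGANTCA, present in 6.59%, occurs in these 3 windows, on either strand. A match of letters is a description and does not show that a factor binds, and its absence here says only that these letters are not in these windows.

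Total counts were 12926136 and 15060744 in control medium, 12286211 to 13990286 in the chick media, and only 7930765 and 8937397 in E15.5-mSGcm. A floor of 3 counts was worth 0.199 to 0.378 counts-per-million (CPM). Floors and intervals of counts cover counting error only, because no source used here names molecular identifiers that would mark PCR copies. The labelled cell type was checked against its markers. Of 11 sympathoadrenal NB markers 10 were tested, among them MYCN with 21103 to 70102 counts, while CHGA was listed at 0 in every library. Genes that most cells use, RPS18, RPL7A and TUBB, were also listed at 0 throughout, so a listing at 0 in this table does not show that a transcript was absent. The summed level of the 11 NB markers was 6721 and 6878 CPM in control medium, 5200 and 5512 CPM in E8-cSGcm, 4000 and 4082 CPM in E8-cDRGcm, and 4156 and 4327 CPM in E15.5-mSGcm. Most of this sum was MYCN, with means of 4645, 3402, 2496 and 2638 CPM in this order. In E15.5-mSGcm the markers ISL1 and DBH were not lower (log2 fold changes 0.02 and 0.47). Markers of other cells were scarce: the 6 leukocyte markers summed to at most 0.384 CPM, 4 endothelial markers to at most 1.61 CPM and the 6 glial markers to at most 4.10 CPM, with SOX10 and FOXD3 at 0. The glial sum was 1.12 and 1.45 CPM in control medium and 2.25 to 4.10 CPM in the conditioned media, where ERBB3 rose in E8-cDRGcm and E15.5-mSGcm. The 6 fibroblast genes were all present and summed to 415.6 to 475.8 CPM, but they did not move together, as COL1A1 fell and COL1A2, LUM and DCN rose in E15.5-mSGcm. The part of these markers in the results below was not tested.

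Per exonic length, the 8 genes spanned a wide range of levels. CD276 stood highest, at 81.4 ± 5.77 transcripts-per-million (TPM; SD over the 8 libraries), above 87.6% of all tested genes. CD47 followed at 44.2 ± 7.12 TPM, B4GALNT1 at 16.9 ± 2.82 TPM and GPC2 at 12.4 ± 4.79 TPM. Below them came ST8SIA1 at 3.88 ± 0.971 TPM and ST3GAL5 at 3.28 ± 1.10 TPM. The lowest were DLK1, at 0.336 ± 0.262 TPM, and CD274, at 0.234 ± 0.155 TPM. CD276 and CD47 did not overlap with each other or with any gene below them in any library. B4GALNT1 (13.4 to 21.9 TPM) and GPC2 (5.73 to 19.3 TPM) overlapped, as did ST8SIA1 (2.78 to 5.63 TPM) with ST3GAL5 (1.79 to 4.59 TPM) and DLK1 with CD274. The order of ST8SIA1 and ST3GAL5 depended on the length used: with the longest transcript in place of all exons, ST3GAL5 was the higher in control medium (5.45 against 4.21 TPM) and in both chick media, and the lower in E15.5-mSGcm (4.49 against 6.3 TPM).

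**Figure D1:**
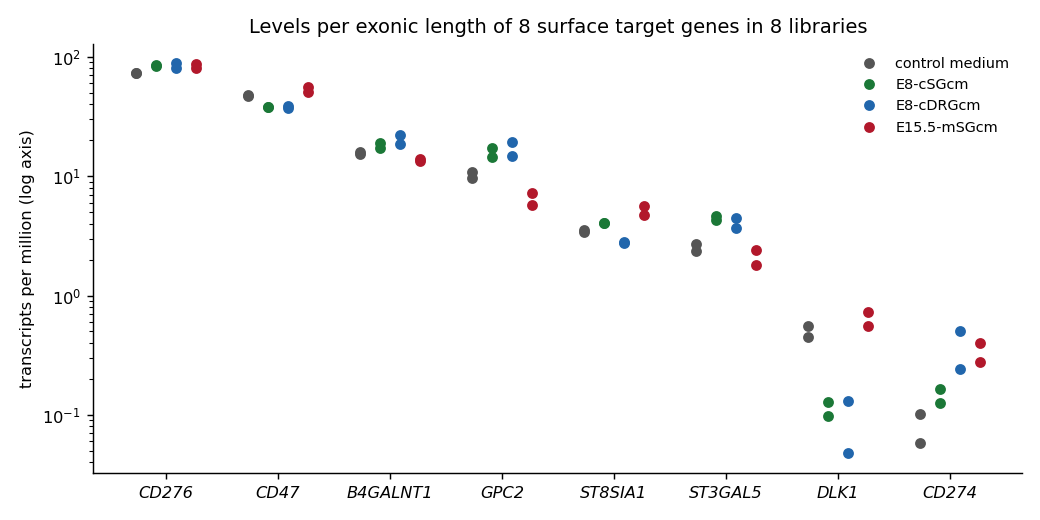
Level of each of the 8 paired genes in TPM (y axis, log scale) in each of the 8 libraries, coloured by medium and ordered by mean level. CD276 and CD47 lay above all others in every library, while DLK1 and CD274 stayed below 1 TPM.

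Each conditioned medium was compared with control medium, to see how cues of the ganglia alter NB cells, and the media were compared with one another. The 3 comparisons with control medium share the same 2 control libraries, so their values stand side by side and are not independent. A call required an adjusted p under 0.05 (edgeR quasi-likelihood test, Benjamini-Hochberg over all tested genes) together with a fold change of at least 1.5, and "rose" or "fell" is used here only for such calls. In E8-cSGcm, 3 of the 7 tested genes were called (2 higher, 1 lower), where 8.59% of all tested genes were, and 5 passed the adjusted p alone, where 31.3% of all did. In E8-cDRGcm, 3 were called (2 higher, 1 lower) against 20.7% of all genes, and all 7 passed the adjusted p alone against 49.5%. Without E8-cDRGcm library 1, none of the 3 was called. In E15.5-mSGcm, 1 was called (lower) against 13.9%, and 3 passed the adjusted p alone against 37.8%. Without E15.5-mSGcm library 2 none was called there, and without E15.5-mSGcm library 1 there were 3. In E8-cSGcm 1 was called without control library 2 or without E8-cSGcm library 2, and 2 without E8-cSGcm library 1. One of the 7, DLK1, reached the filter on low counts only through the control and E15.5-mSGcm libraries, so it was tested only because it was high there, and these counts are not evidence about the list. Of the other 6 tested genes, 2 were called in E8-cSGcm, 2 in E8-cDRGcm and 1 in E15.5-mSGcm. In bulk RNA, fewer cells of a kind and less RNA per cell cannot be told apart.

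**Figure D2:**
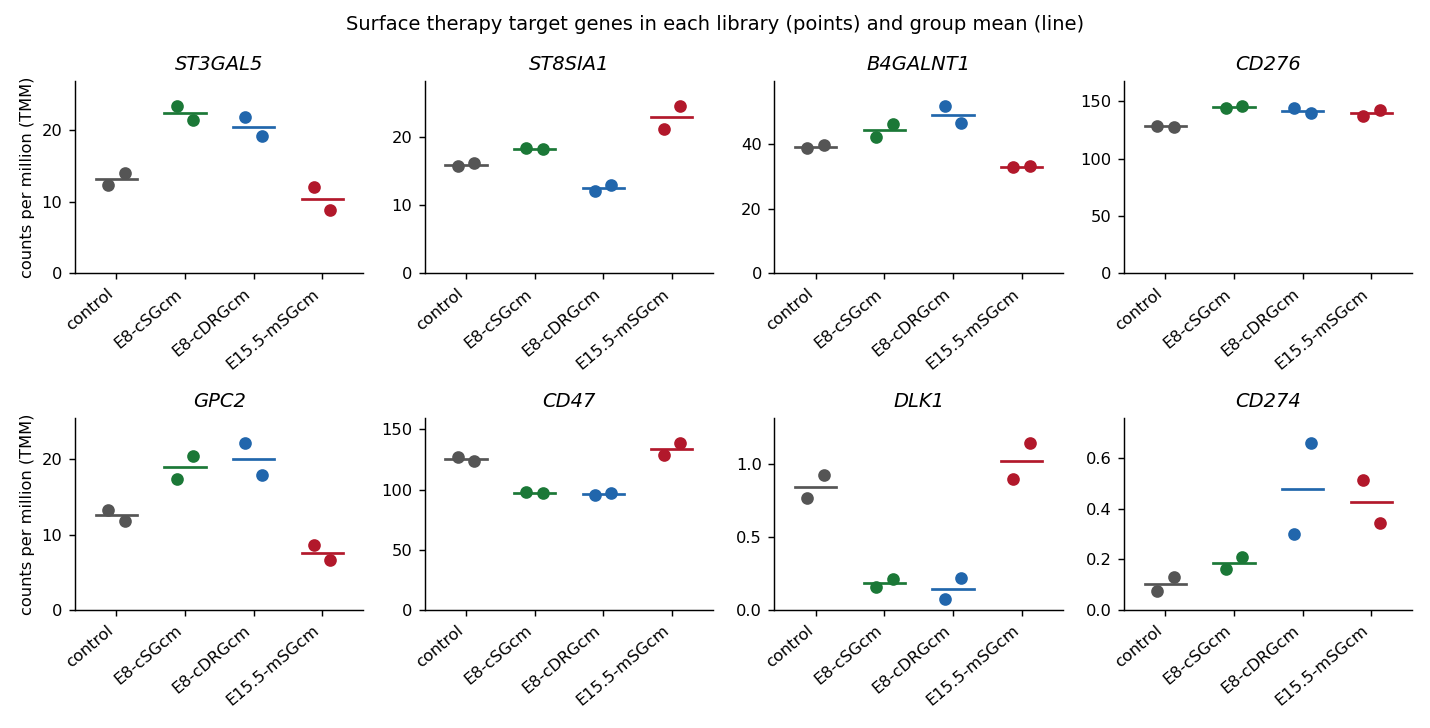
CPM (y axis, TMM-scaled, from 0, with a separate scale for each gene) of 8 genes in the 4 media; points are libraries and lines the mean of 2. ST3GAL5 and GPC2 stand higher and CD47 and DLK1 lower in all 4 libraries of chick media than in both control libraries, and ST8SIA1 is lowest in E8-cDRGcm and highest in E15.5-mSGcm.

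ST3GAL5 (ENSG00000115525, chromosome 2, 85837120 to 85889034, GRCh38.p14), which makes GM3 on the route to GD2, rose in both media of chick ganglia. It had 12.4 and 13.9 CPM in control medium, 23.3 and 21.4 CPM in E8-cSGcm, 21.8 and 19.2 CPM in E8-cDRGcm, and 12.04 and 8.80 CPM in E15.5-mSGcm. All 4 chick-medium libraries lay above both control libraries, and both mouse-medium libraries lay below them. The increase was 1.69-fold in E8-cSGcm (log2 fold change 0.76, SE 0.12, adjusted p = 3.11e-06, edgeR) and 1.55-fold in E8-cDRGcm (0.63, SE 0.12, adjusted p = 2.77e-05, edgeR). The latter is close to the criterion: without control library 1 it was 0.56 and without E8-cDRGcm library 1 it was 0.54 on the log2 scale, under 1.5-fold, and so was the value with a GC content and length correction and a replicate block (0.58). In E15.5-mSGcm the log2 fold change was -0.35 (SE 0.15, adjusted p = 0.0616, edgeR) and did not pass. It was -0.59 without E15.5-mSGcm library 1, which passed both criteria (adjusted p = 0.0161, edgeR).

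ST8SIA1 (ENSG00000111728, chromosome 12, 22193391 to 22334707), the GD3 synthase, is the step after ST3GAL5 and was ordered differently over the media. It had 15.8 and 16.2 CPM in control medium, 18.4 and 18.2 CPM in E8-cSGcm, 12.04 and 13.04 CPM in E8-cDRGcm, and 21.3 and 24.6 CPM in E15.5-mSGcm. The 4 groups did not overlap, with E8-cDRGcm lowest and E15.5-mSGcm highest. None of the differences from control reached 1.5-fold. The log2 fold change was 0.20 in E8-cSGcm (SE 0.11, adjusted p = 0.178, edgeR), -0.35 in E8-cDRGcm (SE 0.12, adjusted p = 0.0126, edgeR) and 0.52 in E15.5-mSGcm (SE 0.12, adjusted p = 3.74e-04, edgeR). The difference in E8-cDRGcm missed the threshold in DESeq2 (adjusted p = 0.119) and with all libraries thinned to the smallest (adjusted p = 0.117, edgeR). The value in E15.5-mSGcm was 0.61 without E15.5-mSGcm library 1, past both criteria, and 0.36 with the GC content and length correction. Within E8-cDRGcm, then, the enzyme before this step rose while both ST8SIA1 libraries were below control. Per exonic length ST3GAL5 to ST8SIA1 stood at 4.46 to 2.78 and 3.69 to 2.83 TPM in the 2 libraries of E8-cDRGcm, and at 2.39 to 4.75 and 1.79 to 5.63 TPM in those of E15.5-mSGcm.

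B4GALNT1 (ENSG00000135454, chromosome 12, 57623409 to 57633201), the GM2 and GD2 synthase, differed from control medium by less than 1.5-fold throughout. It had 38.8 and 39.6 CPM in control medium, 42.3 and 46.2 CPM in E8-cSGcm, 51.8 and 46.5 CPM in E8-cDRGcm, and 32.8 and 33.4 CPM in E15.5-mSGcm. The libraries of each conditioned medium lay apart from control, above it for the chick media and below it for the mouse medium. The log2 fold change was 0.18 in E8-cSGcm (SE 0.08, adjusted p = 0.0886, edgeR), 0.32 in E8-cDRGcm (SE 0.08, adjusted p = 6.51e-04, edgeR) and -0.25 in E15.5-mSGcm (SE 0.09, adjusted p = 0.0280, edgeR), and the last was -0.11 (adjusted p = 0.374, edgeR) with the GC content and length correction. DESeq2 gave an adjusted p of 0.149 for it. Its exons share 2136 bases with SLC26A10P on the opposite strand, which had 0 to 10 counts per library. The option for strand used in the counting is not given in the sources used here.

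The other enzymes of ganglioside synthesis were taken from a list of 15 genes, which includes the 3 above and of which 13 were tested. In E8-cSGcm 2 of them rose and 2 fell, in E8-cDRGcm likewise 2 rose and 2 fell, and in E15.5-mSGcm none rose and 1 fell. Of all tested genes 8.59%, 20.7% and 13.9% were called in either direction in these media. The median log2 fold change of the list was 0.06, 0.18 and -0.23 in these media, against 0.01, 0.01 and -0.02 for all tested genes. UGCG, which makes the glucosylceramide that the route to GD2 starts from, had -0.07 and -0.04 in the chick media and -0.23 in E15.5-mSGcm, under 1.5-fold in each. B4GALT6, which with B4GALT5 makes lactosylceramide, the substrate of ST3GAL5, fell in the chick media. It had 1950 and 2177 counts in control medium, 1078 and 1202 in E8-cSGcm and 1073 and 1018 in E8-cDRGcm, log2 fold changes of -0.78 (adjusted p = 1.96e-13, edgeR) and -0.92 (adjusted p = 4.71e-16, edgeR), while B4GALT5 had -0.05 and 0.18. ST8SIA3, a brain sialyltransferase that extends chains of sialic acid, fell in the same media by 0.71 (adjusted p = 4.58e-11, edgeR) and 1.10 on the log2 scale (adjusted p = 1.80e-16, edgeR). In these media, therefore, ST3GAL5 rose while B4GALT6, whose product it uses, fell. B3GALT4, which extends GD2 and GM2 to the next gangliosides, was listed at 0.

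**Figure D3:**
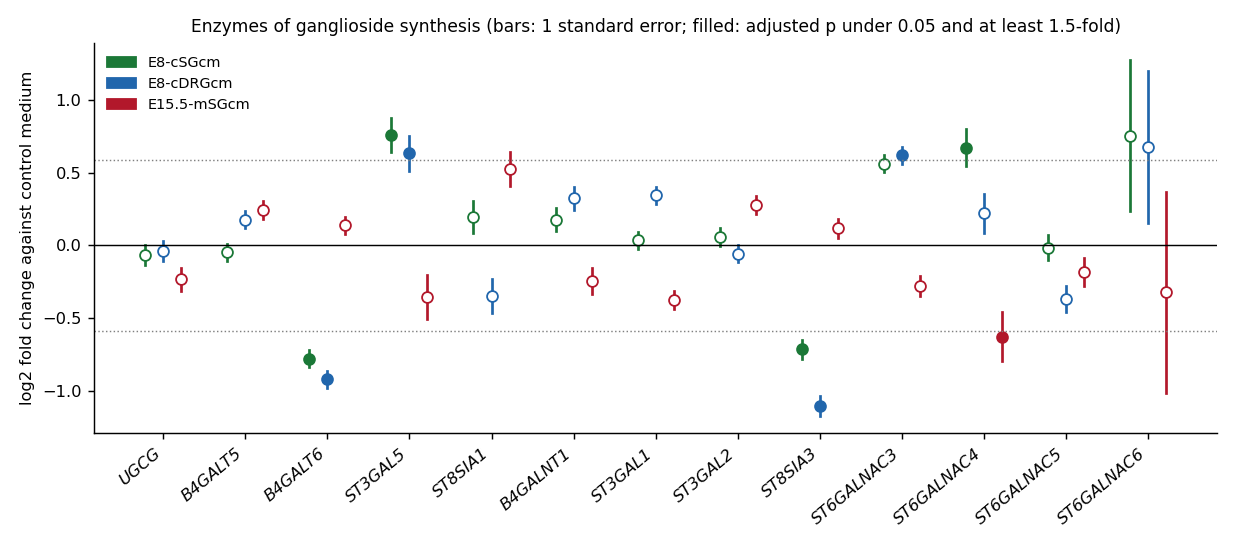
Log2 fold change against control medium (y axis) of the 13 tested enzymes of ganglioside synthesis in 3 media, with bars of 1 SE; filled points passed the adjusted p and 1.5-fold (dotted lines). B4GALT6 and ST8SIA3 fell and ST3GAL5 rose in both chick media, and in E15.5-mSGcm only ST6GALNAC4 was called.

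None of the 5 genes that make or carry activated sialic acid, the donor for ST3GAL5 and ST8SIA1, was called in any medium. The largest value was that of GNE, the first enzyme of sialic acid synthesis, at 0.54 in E15.5-mSGcm (adjusted p = 3.08e-06, edgeR). Of 12 genes of ganglioside breakdown, 9 were tested. Calls in these short lists stand beside 8.59%, 20.7% and 13.9% of all tested genes called in the 3 media, and are not results about the lists. No member was called in the chick media, where PSAP, the precursor of the saposins that present gangliosides to these enzymes, had log2 fold changes of 0.29 and 0.36 (adjusted p = 7.21e-06 and 3.31e-08, edgeR). In E15.5-mSGcm the sialidase NEU3, which removes sialic acid from gangliosides at the plasma membrane, fell by 0.79 on the log2 scale (adjusted p = 2.32e-07, edgeR) and the lysosomal galactosidase GLA rose by 0.62 (adjusted p = 3.92e-06, edgeR). NEU1 was listed at 0.

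CD276 (ENSG00000103855, chromosome 15, 73683944 to 73714514) stood highest of the 8 genes and varied little, between 72.9 and 87.8 TPM. It had 128.8 and 127.5 CPM in control medium, 144.0 and 145.8 CPM in E8-cSGcm, 144.3 and 139.5 CPM in E8-cDRGcm, and 136.8 and 142.2 CPM in E15.5-mSGcm. Every library of conditioned medium lay above both control libraries, by a small margin. The log2 fold change was 0.18 in E8-cSGcm (95% interval 0.07 to 0.29, adjusted p = 0.00931, edgeR), 0.15 in E8-cDRGcm (0.04 to 0.25, adjusted p = 0.0210, edgeR) and 0.12 in E15.5-mSGcm (0.01 to 0.24, adjusted p = 0.0789, edgeR). In DESeq2 the first 2 missed the threshold (adjusted p = 0.062 and 0.1). The GC content and length correction lowered the first to 0.12, past the threshold no longer (adjusted p = 0.065, edgeR), and moved the last to 0.31 (adjusted p = 1.06e-05, edgeR). CD276 lies in the GC-richest of 5 equal groups of tested genes (56.7 to 86.4% GC), whose median log2 fold change in E15.5-mSGcm was -0.19, against 0.08 in the group with the lowest GC content.

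CD274 (ENSG00000120217, chromosome 9, 5450542 to 5470554) was close to the limit of detection. It had 1 and 2 counts in control medium, 2 and 3 in E8-cSGcm, 4 and 9 in E8-cDRGcm, and 4 and 3 in E15.5-mSGcm. The libraries of E8-cDRGcm and E15.5-mSGcm lay above those of control, but these are few reads. The ratio of counts to control, scaled to library size, was 4.54 in E8-cDRGcm (95% exact interval 1.25 to 24.8), 3.99 in E15.5-mSGcm (0.910 to 23.9) and 1.76 in E8-cSGcm (0.343 to 11.4), intervals of counting error only. CD274 was not tested because it failed the filter, and when genes with at least 1 count in total were kept the adjusted p was 0.101, 0.285 and 0.777 in the same order (edgeR).

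Of the 10 genes of the B7 family, 3 were tested, CD276, VSIR and NCR3LG1, and none was called in any medium. NCR3LG1 (B7-H6), a ligand of natural killer cells, had a log2 fold change of 0.46 in E8-cDRGcm (adjusted p = 1.09e-05, edgeR). PDCD1LG2 (PD-L2) and VTCN1 had no count in any library. Among 11 genes known to regulate CD274, all tested, 1 fell in E8-cSGcm, 2 rose in E8-cDRGcm, and 2 rose and 1 fell in E15.5-mSGcm. The shares of all tested genes called in either direction were 8.59%, 20.7% and 13.9% in this order. IRF1, the interferon-responsive factor that acts on the CD274 gene, had 47 and 82 counts in control medium, 135 and 121 in E8-cDRGcm and 125 and 108 in E15.5-mSGcm. It rose by 1.06 (adjusted p = 8.86e-06, edgeR) and 1.63 (adjusted p = 5.17e-09, edgeR) on the log2 scale in these media. NFKB1 fell by 0.62 in E8-cSGcm (adjusted p = 1.72e-07, edgeR) and rose by 1.139 in E15.5-mSGcm (adjusted p = 2.97e-15, edgeR). CMTM6, which keeps the CD274 protein from degradation, was called in no medium (log2 fold changes 0.01, 0.16 and 0.22), and its relative CMTM4 fell by 0.87 in E15.5-mSGcm (adjusted p = 5.24e-10, edgeR).

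GPC2 (ENSG00000213420, chromosome 7, 100169606 to 100177381) was called in all 3 media, higher in those of chick and lower in that of mouse ganglia. It had 13.3 and 11.8 CPM in control medium, 17.3 and 20.5 CPM in E8-cSGcm, 22.1 and 17.95 CPM in E8-cDRGcm, and 8.58 and 6.63 CPM in E15.5-mSGcm. No library of a conditioned medium overlapped with control. The fold change was 1.51 in E8-cSGcm (log2 0.60, SE 0.13, adjusted p = 3.2e-04, edgeR), 1.598 in E8-cDRGcm (log2 0.68, SE 0.12, adjusted p = 2.19e-05, edgeR) and 1.66-fold lower in E15.5-mSGcm (log2 -0.73, SE 0.17, adjusted p = 6.84e-04, edgeR). Each call lies near the 1.5-fold criterion and was lost in some settings, with its direction kept. In E8-cSGcm the log2 value was 0.51 without control library 2, 0.47 without E8-cSGcm library 2 and 0.53 with the GC content and length correction, and in E8-cDRGcm it was 0.51 without E8-cDRGcm library 1. In E15.5-mSGcm it was -0.55 without E15.5-mSGcm library 2 (adjusted p = 0.0507, edgeR) and -0.51 with the correction (adjusted p = 0.0164, edgeR). GPC2, at 61.2% GC, lies in the same GC-rich group as CD276, and the part of GC content in this value was not tested further.

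**Figure D4:**
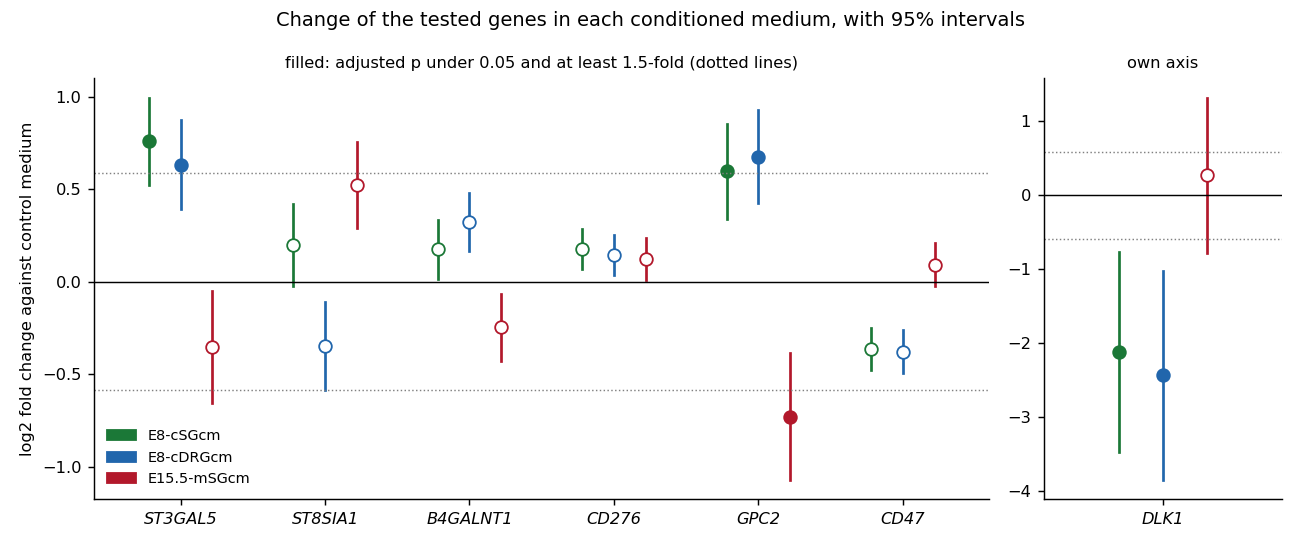
Log2 fold change against control medium (y axis, DLK1 on its own axis) of the 7 tested genes, with 95% intervals from edgeR; filled points passed the adjusted p and the 1.5-fold criterion (dotted lines). ST3GAL5 and GPC2 rose in both chick media, and only GPC2 was called in E15.5-mSGcm. DLK1 is filled in both chick media but was tested only because it was high in control medium and E15.5-mSGcm.

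In a list of 12 glypicans, syndecans and their heparin-binding ligands, which includes GPC2 and of which 11 were tested, 2 rose and none fell in E8-cSGcm, 3 rose and none fell in E8-cDRGcm, and 2 rose and 2 fell in E15.5-mSGcm. Among all tested genes 8.59%, 20.7% and 13.9% were called in either direction in these media. The median log2 fold change of the list was 0.29, 0.36 and -0.17, against 0.01, 0.01 and -0.02 for all tested genes. SDC3, the syndecan of nerve cells, was called in the same directions as GPC2. It had 249 and 308 counts in control medium, 377 and 443 in E8-cSGcm, 461 and 476 in E8-cDRGcm and 71 and 96 in E15.5-mSGcm, log2 fold changes of 0.64, 0.82 and -0.96 (adjusted p = 1.43e-06, 2.07e-09 and 1.42e-07, edgeR). Of the other 4 glypicans tested, GPC1 and GPC6 were, like GPC2, lower in E15.5-mSGcm, by less than 1.5-fold (log2 fold changes -0.55 and -0.25, adjusted p = 7.44e-05 and 0.0188, edgeR). There GPC3 rose by 1.17 (adjusted p = 6.31e-13, edgeR) and GPC5 by 1.00 (adjusted p = 1.38e-08, edgeR). In E8-cDRGcm GPC6 rose by 0.90 (adjusted p = 2.67e-12, edgeR), while GPC1, GPC5 and GPC3 had log2 fold changes of 0.50, 0.35 and -0.32, under 1.5-fold. GPC2 binds midkine, and MDK, which encodes midkine, was called in no medium (log2 fold changes 0.29, 0.16 and -0.04). GPC4 was listed at 0.

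DLK1 (ENSG00000185559, chromosome 14, 100726892 to 100738224) was lower in the media of chick ganglia, at very few reads. It had 10 and 14 counts in control medium, 2 and 3 in E8-cSGcm, 1 and 3 in E8-cDRGcm, and 7 and 10 in E15.5-mSGcm. The 4 chick-medium libraries lay below every other library, while the mouse medium, at its lower depth, had 0.897 and 1.142 CPM against 0.765 and 0.921 CPM in control medium. Scaled to library size, control medium had 4.54 times the counts of E8-cSGcm (95% exact interval 1.70 to 15.2) and 5.73 times those of E8-cDRGcm (1.97 to 22.7). DLK1 was tested only because it was high in control medium and E15.5-mSGcm, so its calls in the chick media are not evidence of a fall. The adjusted p was 0.0129 in E8-cSGcm and 0.00366 in E8-cDRGcm (edgeR), and 0.723 in E15.5-mSGcm, where the ratio to control was 1.21 (0.610 to 2.35). These calls depend on single libraries: in E8-cSGcm the adjusted p was 0.106 without control library 2, 0.0848 without E8-cSGcm library 1 and 0.0711 without E8-cSGcm library 2, and in E8-cDRGcm it was 0.0701 without E8-cDRGcm library 1 (edgeR). DESeq2 gave 0.0619 in E8-cDRGcm and left DLK1 without an adjusted p in E8-cSGcm.

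MEG3, a noncoding RNA of the same imprinted region that is expressed from the other parental copy of the chromosome, had far more reads. It fell in both chick media. MEG3 had 982 and 1297 counts in control medium, 619 and 618 in E8-cSGcm, 530 and 491 in E8-cDRGcm and 662 and 790 in E15.5-mSGcm. Its log2 fold change was -0.79 in E8-cSGcm (adjusted p = 1.68e-10, edgeR), -1.09 in E8-cDRGcm (adjusted p = 2.17e-14, edgeR) and 0.13 in E15.5-mSGcm (adjusted p = 0.189, edgeR). MEG9 fell by 1.12 (adjusted p = 0.0202, edgeR) and 1.61 (adjusted p = 0.00106, edgeR) in the chick media, with 27 and 31 counts in control medium. Of 8 genes in the list of the DLK1 locus and DLK1 processing, 7 were tested, and 3 fell in E8-cSGcm, 5 in E8-cDRGcm and 1, DIO3, in E15.5-mSGcm, with none rising. Without DLK1 itself, 2 of the other 6 fell in E8-cSGcm and 4 in E8-cDRGcm, where 8.59% and 20.7% of all tested genes were called in either direction. The 1 call in E15.5-mSGcm stands beside 13.9%. The counts do not tell the parental copies apart. ADAM17, which sheds the DLK1 ectodomain, was called in no medium.

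CD47 (ENSG00000196776, chromosome 3, 108043091 to 108091031) was lower in the media of chick ganglia by less than 1.5-fold. It had 127.5 and 123.6 CPM in control medium, 98.1 and 96.9 CPM in E8-cSGcm, 95.7 and 97.3 CPM in E8-cDRGcm, and 128.4 and 138.9 CPM in E15.5-mSGcm. The 4 libraries of chick media lay between 95.7 and 98.1 CPM, below all other libraries. The decrease was 22.3% in E8-cSGcm (log2 -0.36, SE 0.06, adjusted p = 3.54e-06, edgeR) and 23.1% in E8-cDRGcm (log2 -0.38, SE 0.06, adjusted p = 6.26e-07, edgeR). In E15.5-mSGcm the log2 fold change was 0.09 (SE 0.06, adjusted p = 0.216, edgeR), and -0.03 with the GC content and length correction.

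A list of 10 phagocytosis signals and complement regulators holds CD47 and CD24, and 9 were tested. In E8-cSGcm 4 rose and none fell, in E8-cDRGcm 3 rose and 1 fell, and in E15.5-mSGcm 1 rose and none fell. The rises in the chick media include CD55, which reached the filter on low counts only through the libraries of those media and so was tested only because it was high there. Without it 3 of the other 8 tested genes rose in E8-cSGcm and 2 in E8-cDRGcm, where 8.59% and 20.7% of all tested genes were called in either direction. For E15.5-mSGcm that share was 13.9%. CD55 and CD59 shield cells from complement, an arm through which antibodies to GD2 act in part. CD59 rose in both chick media. It had 183 and 193 counts in control medium, 244 and 321 in E8-cSGcm and 273 and 285 in E8-cDRGcm (log2 0.66 and 0.63, adjusted p = 1.20e-05 and 1.02e-05, edgeR). CD55 had few reads, with 4 and 2 counts in control medium, 12 and 12 in E8-cSGcm, 23 and 14 in E8-cDRGcm and 1 and 0 in E15.5-mSGcm, a ratio of counts to control of 4.23 (95% exact interval 1.68 to 12.7) and 6.46 (2.70 to 18.7) in the chick media. LRP1, the phagocytic receptor for calreticulin, rose in E8-cDRGcm by 1.04 (adjusted p = 1.48e-14, edgeR), where CALR, which encodes calreticulin, fell by 0.77 (adjusted p = 2.12e-16, edgeR). SIRPA, the receptor of CD47, rose in E15.5-mSGcm by 1.37 (adjusted p = 2.04e-12, edgeR), from 161 and 195 counts in control medium to 237 and 302 in the shallower libraries. QPCTL, the enzyme that modifies the end of CD47 to which SIRPA binds, rose in E8-cSGcm by 0.71 (adjusted p = 0.00260, edgeR). THBS1, the remaining gene of the list called in E8-cSGcm, rose by 0.73 (adjusted p = 1.48e-04, edgeR). It had 91 and 121 counts in control medium and 150 and 183 in E8-cSGcm.

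The 2 chick media were then compared with each other. E8-cDRGcm and E8-cSGcm differed by call in none of the 7 tested genes, against 7.49% of all tested genes, and 1 gene passed the adjusted p alone, against 30.2%. With 7 genes, no call is near the share of all genes and is not a result about the list. The gene that passed the adjusted p was ST8SIA1, lower in E8-cDRGcm by 0.55 on the log2 scale (SE 0.12, adjusted p = 3.29e-04, edgeR), and it passed both criteria with the GC content and length correction (-0.60) and without E8-cDRGcm library 2 (-0.60). For the other genes the 95% interval of the log2 difference was -0.35 to 0.10 for ST3GAL5, -0.16 to 0.32 for GPC2, -0.01 to 0.31 for B4GALNT1, -0.14 to 0.08 for CD276, -0.13 to 0.10 for CD47, and -2.28 to 1.64 for DLK1, whose counts set no useful bound.

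The mouse medium differed from both chick media. Against E8-cSGcm, 3 of the 7 genes were called (1 higher, 2 lower), against 22.3% of all tested genes, and 6 passed the adjusted p alone, against 49.8%. Against E8-cDRGcm, 4 were called (2 higher, 2 lower), against 26.2%, and 6 passed the adjusted p alone, against 52.6%. These counts include DLK1, tested only because it was high in E15.5-mSGcm and control medium. Without it 2 of the other 6 were called against E8-cSGcm, both lower, and 3 against E8-cDRGcm, of which 1 was higher and 2 lower. GPC2 was 2.51-fold lower than in E8-cSGcm (log2 -1.33, SE 0.16, adjusted p = 7.06e-09, edgeR) and 2.65-fold lower than in E8-cDRGcm (log2 -1.41, SE 0.16, adjusted p = 1.05e-09, edgeR). ST3GAL5 was 2.16-fold lower (log2 -1.11, SE 0.14, adjusted p = 1.83e-08, edgeR) and 1.98-fold lower (log2 -0.98, SE 0.14, adjusted p = 2.03e-07, edgeR). DLK1 had 5.49 times (95% exact interval 1.95 to 19.0) and 6.93 times (2.26 to 28.3) the scaled counts of the chick media. Its adjusted p of 0.00455 and 0.00203 (edgeR) is limited by that choice through the filter, and the first missed the threshold in DESeq2 (adjusted p = 0.0583) and without E15.5-mSGcm library 2 (adjusted p = 0.0655, edgeR). ST8SIA1 was 1.83-fold higher than in E8-cDRGcm (log2 0.87, SE 0.12, adjusted p = 1.08e-07, edgeR) and above E8-cSGcm by 0.33 on the log2 scale (adjusted p = 0.0157, edgeR), which was 0.15 (adjusted p = 0.299, edgeR) with the GC content and length correction. CD47 was higher by 0.46 and 0.47 on the log2 scale (adjusted p = 3.90e-08 and 1.43e-08, edgeR), short of 1.5-fold. B4GALNT1 was lower by 0.42 than in E8-cSGcm and by 0.57 than in E8-cDRGcm, the latter just short of 1.5-fold (adjusted p = 8.05e-07, edgeR) and past it without E8-cDRGcm library 2 (-0.66) or E15.5-mSGcm library 2 (-0.59). CD276 differed from neither by the adjusted p, with intervals of -0.17 to 0.06 and -0.14 to 0.09, although the GC content and length correction gave 0.19 (adjusted p = 0.00381, edgeR) and 0.15 (adjusted p = 0.0203, edgeR). Species, embryonic day and sequencing depth all separate the mouse medium from the chick media, and the kind of ganglion also separates it from E8-cDRGcm. The parts of these in the differences cannot be told apart in these comparisons. Thinning every library to 7930765 counts kept the calls of ST3GAL5 and GPC2 against both chick media (log2 -1.10 and -1.41 against E8-cSGcm, -0.99 and -1.39 against E8-cDRGcm). It evens only the total counts, and DLK1 was not tested in that setting.

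For context, 7 further NB surface targets were read from a list that includes ALK, NCAM1 and SLC6A2, and all 7 were tested. In E8-cSGcm 1 rose and 1 fell, in E8-cDRGcm 1 rose and 1 fell, and in E15.5-mSGcm 1 rose and 2 fell. These counts stand beside 8.59%, 20.7% and 13.9% of all tested genes called in either direction. SLC6A2, the noradrenaline transporter that takes up the radioactive tracer MIBG, had 1943 and 2353 counts in control medium, 814 and 1030 in E8-cSGcm, 438 and 438 in E8-cDRGcm, and 546 and 529 in E15.5-mSGcm. It fell in every medium, with log2 fold changes of -1.141, -2.23 and -1.22 (adjusted p = 8.60e-17, 5.39e-25 and 3.71e-17, edgeR). SSTR2, the somatostatin receptor bound by DOTATATE tracers, rose in E15.5-mSGcm by 2.14 (adjusted p = 2.15e-21, edgeR), from 506 and 617 to 1236 and 1671 counts. ALK fell in E15.5-mSGcm by 0.91 (adjusted p = 2.90e-04, edgeR). SLC6A2 belongs, as most of the NB markers above do, to the noradrenergic program of sympathetic neurons. Of those markers 2 of 10 tested fell in E8-cSGcm, 7 in E8-cDRGcm and 4 in E15.5-mSGcm, where 8.59%, 20.7% and 13.9% of all tested genes were called in either direction.

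The genes whose pattern over the 8 libraries was most like that of each tested gene were found among 11420 genes of at least 5 CPM on average, by Pearson's r of log2 CPM. These values describe the 8 libraries, which share the groups and their depth, and carry no test. GPC2 was most like RGS10 and LANCL1 (r = 0.990 for both) and ST3GAL5 most like PRRG1 (r = 0.984) and USO1 (r = 0.981). RGS10 had group means of 7.24, 12.7, 12.2 and 3.88 CPM in control medium, E8-cSGcm, E8-cDRGcm and E15.5-mSGcm, where GPC2 had 12.6, 18.9, 20.0 and 7.61 CPM. ST8SIA1 was most like P4HB (r = 0.989), B4GALNT1 most like TRIM25 (r = 0.995), CD276 most like MANBA (r = 0.992) and CD47 most like SFMBT2 and PDLIM5 (r = 0.992 for both). DLK1 was most like CLPTM1 (r = 0.986), but it had only 1 to 14 counts per library, so counting error limits this value. None of the 7 tested genes was among the 2 nearest genes of another.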

How the data were processed

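RNA-seq libraries of IGR-N91 aggregates were read from 1 table of raw counts per Ensembl gene, deposited by the authors, with no normalization and no pooling. Per the labels and the study's methods, the libraries were made from 50 ng of RNA and sequenced as 75-base reads. The submitters' processing notes name bcl2fastq 2.17.1.14, cutadapt 1.9.1, TopHat2 2.1.0 and HTSeq 0.11.3. The notes name hg38 and the methods hg19. Of 60676 identifiers, 2065 are missing from a GENCODE release mapped to GRCh37, so coordinates are printed from RefSeq GRCh38.p14 only. Symbols, GC content and exonic length came from that GENCODE table, and 58611 identifiers matched. Strand option and treatment of reads with several alignments are not given in the sources used here, so overlapping and near-identical genes can lose or share reads.

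Genes were kept by edgeR's filter at 10 counts (0.757 CPM in this table), which left 16680. One quasi-likelihood model of all 8 libraries (edgeR 4.0.16, R 4.3.3, TMM scaling, robust) gave 6 contrasts, with Benjamini-Hochberg adjustment over all tested genes. Calls needed an adjusted p under 0.05 and 1.5-fold. In counts simulated on E8-cSGcm against control medium over 16680 genes, 194 of 200 changed genes and 5 unchanged genes were called. The planted changes were well past 1.5-fold and left out genes of few counts. They therefore do not cover calls near 1.5-fold or at few counts. CPM per library are TMM-scaled, log2 CPM for likeness used a prior count of 2, TPM used the length of all exons, and ratios of few counts have exact binomial intervals at 95%. Libraries of a group agreed at r of 0.989 to 0.993 in log2 CPM.

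Alternatives were DESeq2 1.42.0, filters at 1 count in total and at 10 counts in every library, the adjusted p alone, a spline correction for GC content and length, libraries thinned to 7930765 counts, a replicate block, and each library left out in turn. RLE size factors in place of TMM, and fits of only the libraries compared, were also run. Genes named are the 9 target genes, up to 3 called genes of each pathway list with the largest log2 fold change against control medium, genes at a step next to a target, and the 2 genes most like each tested target over the libraries (mean of at least 5 CPM). GNE, PSAP, NCR3LG1, CMTM6, CD59, CALR, QPCTL, THBS1, GPC1, GPC6, MDK, DIO3, ADAM17 and ST6GALNAC4 fall outside this rule and were chosen after their values were seen. The members and lists were chosen with earlier results of these data known.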

Additional observations from a re-analysis of the deposited data

How the results depend on the processing

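Samples with the same number did not deviate together (r of -0.0437 to 0.042 between groups), so these values show no pairing by number. They cannot exclude shared cultures or batches, because each deviation is that of 1 library from a mean of 2. With the replicate block, 1414, 3444, 2288, 1233, 3723 and 4342 genes were called, in the order E8-cSGcm, E8-cDRGcm and E15.5-mSGcm against control medium, E8-cDRGcm and E15.5-mSGcm against E8-cSGcm, and E15.5-mSGcm against E8-cDRGcm, and the members called were 3, 3, 1, 0, 3 and 4 as without it. By the adjusted p alone, 5213, 8261, 6305, 5037, 8304 and 8767 genes were called, with 5, 7, 3, 1 and 6 members in the first 5 comparisons. DESeq2 called 839 genes for E8-cSGcm against control and 690 for E8-cDRGcm against E8-cSGcm. With the GC content and length correction, with or without the block, 0 members were called for E15.5-mSGcm against control and 1 for E8-cDRGcm against E8-cSGcm. Of all 16680 tested genes 2157 and 1233 were called there without the block, and 2134 and 1204 with it. With 7 tested members, these counts are not results about the members. Leaving out 1 library at a time gave 1182 to 1424, 3153 to 3585, 1797 to 2429, 999 to 1281, 3232 to 3865 and 3992 to 4532 genes, and 1 to 3, 0 to 3, 0 to 3, 0 to 1, 2 to 3 and 4 to 5 members, in the same order.

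Directions reversed for the following differences, none of which passed the adjusted p as reported. The correction, without and with the block, gave CD47 in E15.5-mSGcm against control -0.034 and -0.035, CD276 in E8-cDRGcm against E8-cSGcm 0.0398 and 0.0396, and CD276 in E15.5-mSGcm 0.1887 and 0.1888 against E8-cSGcm and 0.1489 and 0.1492 against E8-cDRGcm. For E8-cDRGcm against E8-cSGcm, thinning gave -0.0196 for GPC2 and 0.045 for CD47, and leaving out a library gave -0.077 to 0.22 for GPC2 and -1.21 to 0.22 for DLK1. For CD276 in E15.5-mSGcm against E8-cDRGcm, leaving out a library gave -0.0599 to 0.0095. The cause of these shifts was not tested. Of the member values with a library left out, 316 kept their direction and side of the call, 5 gained and 11 lost it, and 4 reversed. Under the other alternatives these were 367, 18, 7 and 10. Most of the 18 come from the adjusted p alone, which keeps the reported fit and only drops the fold criterion. Its unchanged values also count among the 367.

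Depth limits DLK1 and CD274. DESeq2 left DLK1 without an adjusted p in 3 comparisons, and with 10 counts required in every library DLK1 had no value.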
